A study of Arabidopsis thaliana with 8 samples.

Results

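Sinapate and monolignol glucoside metabolism was followed through 10 genes of Arabidopsis thaliana inflorescence stems. The genes were REF1 (AT3G24503, also called ALDH2C4), those whose symbol begins UGT84A or UGT72E, and the beta-glucosidase genes BGLU45, BGLU46 and BGLU47, each where a probe set named that gene alone. The rule covers 11 genes of the gene table, and UGT84A2 (AT3G21560) has no such probe set here. The 10 genes stand among 13356 genes with a probe set of their own and 22746 probe sets tested in all, and each is read by 1 probe set.

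Lignin is made from monolignols, the hydroxycinnamyl alcohols, and ferulate/coniferaldehyde 5-hydroxylase (F5H) directs the pathway from guaiacyl towards syringyl units. Coniferaldehyde and sinapaldehyde can leave this route: REF1, an aldehyde dehydrogenase, oxidises them to ferulic and sinapic acid, the precursors of the soluble sinapate esters that shield Arabidopsis from ultraviolet light. The UGT84A enzymes join glucose to hydroxycinnamic acids as an ester, UGT72E enzymes glucosylate monolignols and their aldehydes, and the beta-glucosidases BGLU45 and BGLU46 can release monolignols again from their glucosides.

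The 3 groups of stems compared were all of ecotype Columbia-0, from plants 1.5 months old grown under 16 h of light and 8 h of dark. Wild type (WT) had 3 samples, the line labelled F5H-OE, an overexpressor of F5H, had 3, and the line labelled fah-1, with loss of F5H function, had 2. Each sample pooled the stems of 5 plants. The promoter of the F5H transgene and the number of independent lines are not stated in the labels. Values are RMA intensities on a linear scale, 1 array for each sample, and fold changes are differences of mean log2 intensity with the moderated standard error of limma.

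The arrays were alike in median intensity (112 to 118). One array differed most from the rest: F5H-OE replicate 1 correlated with its own group at a mean of 0.987, where the other 7 arrays reached 0.991 to 0.997. Its GAPDH control probe sets, read at both ends of the transcript, differed by 1.47 (log2, 3′ minus 5′), and those of the other arrays by at most 0.853. The log2 fold changes of the members in F5H-OE against WT are therefore also given without it. So are those of REF1 and UGT72E1 in F5H-OE against fah-1. Group means, their order and the counts of groups that did not overlap include it. F5H itself has no probe set named for it in the annotation used, so the labels could not be checked by its level. Stem tissue markers were present: the 3 measured of 12 xylem and fibre genes, IRX10, IRX15 and IRX15-L of xylan synthesis, had a summed intensity of 3278 to 5485 over all arrays, and the measured photosynthetic gene LHCB4.1 stood at 10288 to 11067. All 10 members lay above the highest TrpnX control probe set, a measure of background, on every array, the closest by 1.71-fold.

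**Figure D1:**
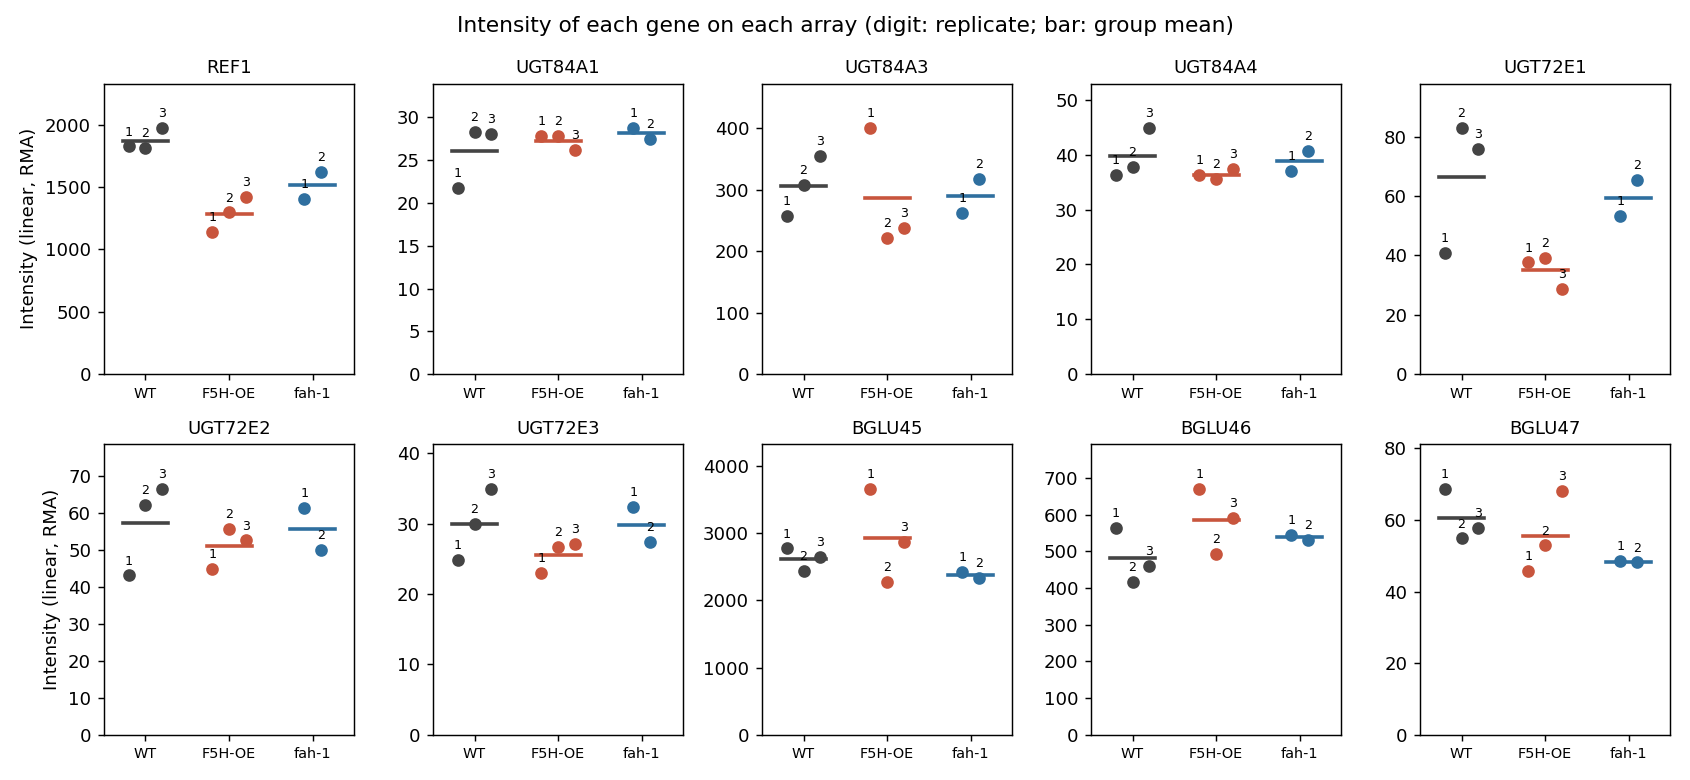
Intensity (linear scale, vertical axis from 0) of the 10 genes on each array by group. Points are arrays with their replicate number and bars are group means; REF1 is lower on all 3 F5H-OE arrays (1141 to 1417) than on any WT array (1812 to 1973), and most other genes overlap between groups.

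REF1, the aldehyde dehydrogenase, was the member that changed. Its intensity was 1826, 1812 and 1973 on the WT arrays, 1141, 1296 and 1417 on the F5H-OE arrays and 1404 and 1620 on the fah-1 arrays. All F5H-OE and fah-1 values lay below all WT values, and F5H-OE and fah-1 overlapped each other. In F5H-OE against WT, REF1 fell by 0.55 ± 0.10 on the log2 scale (SE, adjusted p = 0.032), or 1.46-fold with a 95% interval of 1.24-fold to 1.72-fold. Group means were 1285 ± 139 in F5H-OE and 1870 ± 89.3 in WT (SD, n = 3 each). Without F5H-OE replicate 1, on which REF1 was lowest of all, the log2 fold change was -0.46 (adjusted p = 0.026). In that fit 1758 probe sets were called, against 603 with all arrays. The adjustment runs over all probe sets, so the lower adjusted p does not mark a stronger REF1 difference.

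The REF1 call sat close to the threshold. It ended without WT replicate 1, 2 or 3 (adjusted p = 0.065, 0.100 and 0.108), without F5H-OE replicate 2 or 3 (0.090 and 0.054), and in a fit of the compared groups alone (0.054). Leaving out either fah-1 array gave the same fit as the compared groups alone, since the remaining fah-1 array adds no estimate of spread. The log2 fold change itself ranged from -0.62 to -0.45 over the 18 alternatives.

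REF1 in fah-1 against WT had a log2 fold change of -0.31 (SE 0.11, 95% interval -0.57 to -0.048), which did not pass when adjusted over all probe sets (adjusted p = 0.951). The fah-1 mean was 1512 ± 153 (SD, n = 2). F5H-OE against fah-1 gave -0.24 with a 95% interval of -0.50 to 0.024 (adjusted p = 0.360), and -0.15 without F5H-OE replicate 1 (adjusted p = 0.465) or -0.13 without fah-1 replicate 2 (adjusted p = 0.841). The group means were thus ordered F5H-OE, fah-1, WT from low to high, and neither neighbouring pair in that order passed the test. Both comparisons with WT use the same WT arrays.

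Tissue markers were read beside REF1. LHCB4.1 overlapped between all groups. The summed xylem and fibre markers were 4520 to 5485 in F5H-OE, 4032 to 5379 in WT and 3278 to 3427 in fah-1, so both fah-1 arrays were below all others. In fah-1 against WT, IRX10, IRX15 and IRX15-L were at -0.55, -0.46 and -0.34 (log2). None of them passed (adjusted p = 0.898, 0.946 and 0.965). Each was lower on both fah-1 arrays than on any WT array, as were 14.9% of all probe sets. IRX10 was higher in F5H-OE than in fah-1, by 0.64 on the log2 scale (adjusted p = 0.038), a call that ended in 9 of 18 alternatives, among them those leaving out either fah-1 array, or replicate 2 or 3 of WT or of F5H-OE (adjusted p 0.0041 to 0.330 over all). IRX15 and IRX15-L did not pass in that comparison (adjusted p = 0.179 and 0.156). Of 4 listed phloem markers 1 was measured, the sugar transporter gene SWEET11, at 312, 552 and 916 in WT, at 576, 58.7 and 90.4 in F5H-OE, and at 528 and 619 in fah-1. The part of tissue make-up in the REF1 values was not tested, and in these whole stems fewer cells of a type and less RNA per cell cannot be told apart.

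**Figure D2:**
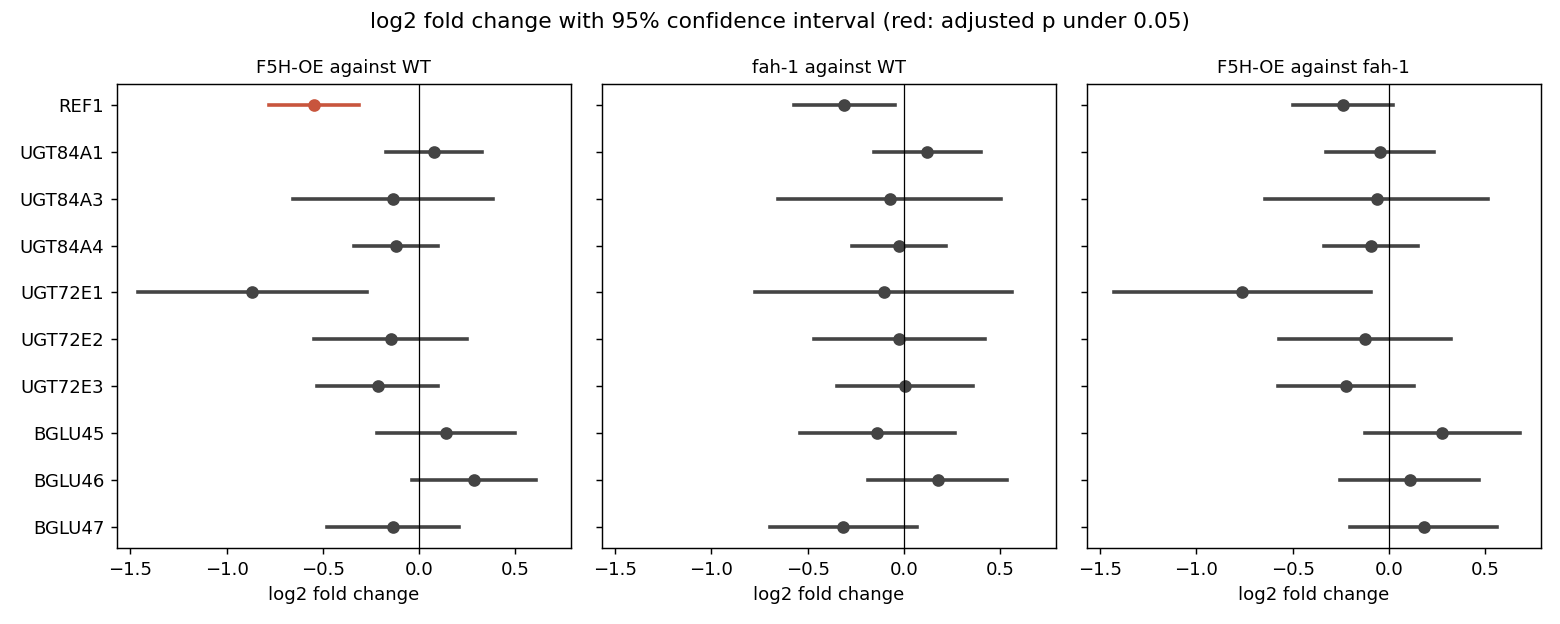
log2 fold change (horizontal axis) with its 95% confidence interval for each gene in the 3 comparisons; red marks an adjusted p under 0.05. REF1 in F5H-OE against WT, at -0.55, is the 1 interval in red, and UGT72E1 has the widest interval of that comparison, from -1.46 to -0.27.

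The count of 1 of 10 members called in F5H-OE against WT has to be read against the 2.65% of all 22746 probe sets called in that comparison, or 1.36% called as lower. At an unadjusted p under 0.05 in limma there were 2 of 10 members, against 17.5% of all probe sets. In fah-1 against WT limma called 0 of 10 members, with 1 at an unadjusted p under 0.05, where 0.00879% of all probe sets were called and 5.02% had an unadjusted p under 0.05. In F5H-OE against fah-1 it called 0 of 10, again with 1 at an unadjusted p under 0.05, against 1.97% of all probe sets called, 0.835% called as lower, and 15.7% at that unadjusted p. Median log2 fold changes over the 10 members were -0.14, -0.050 and -0.078 in these comparisons, beside -0.024, -0.020 and -0.0057 over all probe sets. The members' median rested on single arrays: for F5H-OE against WT it was -0.087 without F5H-OE replicate 1, -0.22 without WT replicate 1 and -0.026 without WT replicate 3, and for fah-1 against WT it was -0.16 without WT replicate 1 and 0.052, with the opposite sign, without WT replicate 3.

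The UGT72E genes glucosylate lignin precursors: UGT72E1 acts on coniferaldehyde and sinapaldehyde, UGT72E2 on coniferyl and sinapyl alcohol and UGT72E3 mainly on sinapyl alcohol. UGT72E1 (AT3G50740) had intensities of 40.7, 83.0 and 76.0 in WT, 37.6, 39.2 and 28.8 in F5H-OE, and 53.3 and 65.5 in fah-1. The F5H-OE arrays were all below the WT and fah-1 arrays, but WT replicate 1 was close to the highest F5H-OE array, at 40.7 against 39.2. Against WT, F5H-OE gave -0.87 ± 0.26 (log2 fold change, SE), larger in size than the value of REF1, and this did not pass (adjusted p = 0.140).

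The test of UGT72E1 turned on WT replicate 1. Without that array the log2 fold change was -1.19 and passed (adjusted p = 0.019), and with array weights it was -1.15 and passed as well (adjusted p = 0.014); over all alternatives the adjusted p ran from 0.014 to 0.359. Without F5H-OE replicate 1 it was -0.92 (adjusted p = 0.104). F5H-OE against fah-1 gave -0.76 with a 95% interval of -1.43 to -0.093 (adjusted p = 0.258), or -0.82 without F5H-OE replicate 1 (adjusted p = 0.190). Of the alternatives, array weights alone made this comparison pass (0.032). For fah-1 against WT the log2 fold change of UGT72E1 was -0.10, with an interval of -0.77 to 0.56 that leaves changes of 1.71-fold downwards and 1.48-fold upwards possible.

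**Figure D3:**
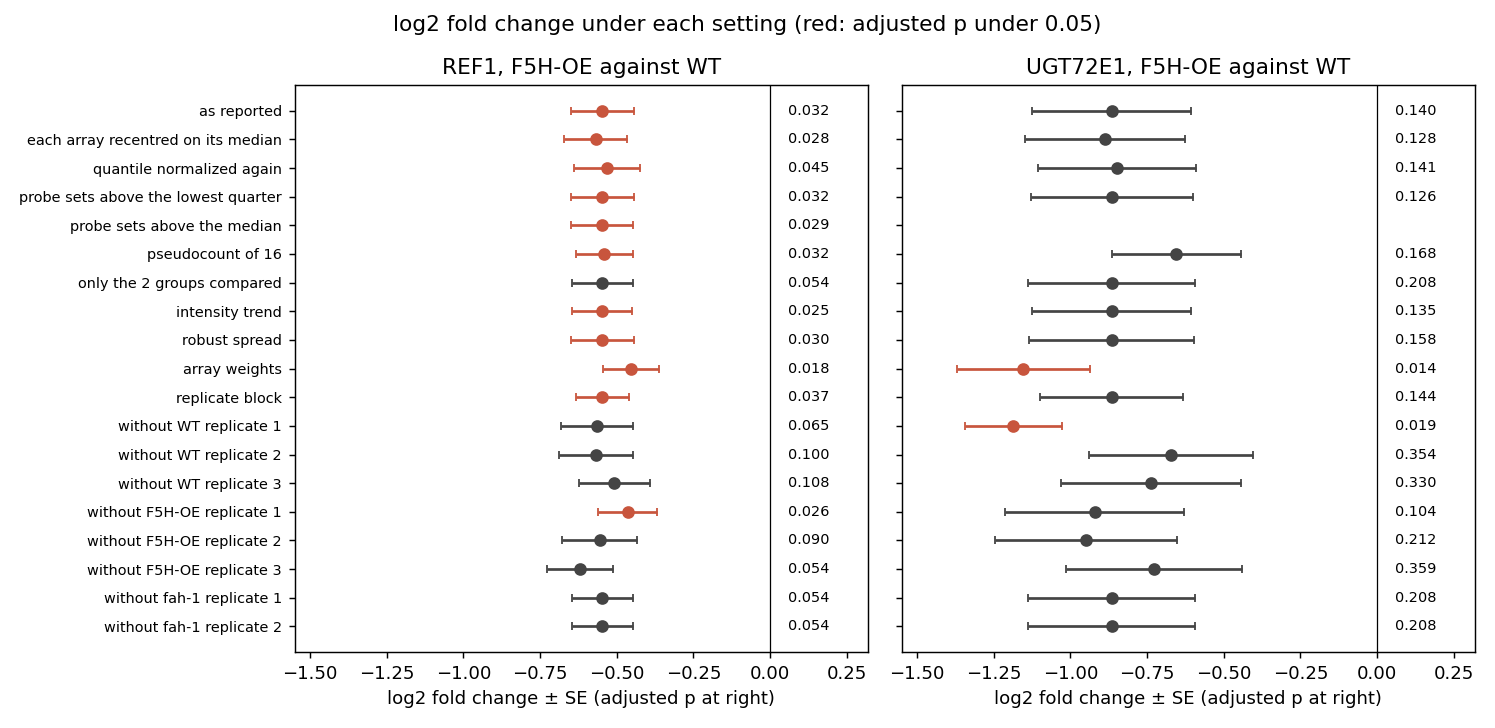
log2 fold change ± SE of REF1 and UGT72E1 in F5H-OE against WT as reported and under each alternative, with the adjusted p at the right and red for an adjusted p under 0.05. REF1 stays between -0.62 and -0.45 while its adjusted p crosses the threshold, and UGT72E1 passes in 2 settings; UGT72E1 was not tested among probe sets above the median.

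UGT72E2 (AT5G66690) lay at 43.0, 62.0 and 66.5 in WT, at 44.7, 55.6 and 52.5 in F5H-OE and at 61.2 and 49.9 in fah-1. UGT72E3 (AT5G26310) lay at 24.9, 30.0 and 35.0 in WT, at 23.0, 26.7 and 27.2 in F5H-OE and at 32.4 and 27.4 in fah-1. The groups overlapped for both genes, except that all UGT72E3 values in F5H-OE were below those in fah-1. The log2 fold changes in F5H-OE against WT were -0.15 for UGT72E2 (95% interval -0.54 to 0.25) and -0.22 for UGT72E3 (-0.53 to 0.10), and neither passed (adjusted p = 0.704 and 0.466). Without F5H-OE replicate 1 they were -0.056 and -0.14 (adjusted p = 0.897 and 0.634). WT arrays moved them further: they were -0.34 and -0.34 without WT replicate 1, and -0.026 and -0.097 without WT replicate 3. UGT72E3 was dim, 1.71-fold above the TrpnX level at its lowest, so that background makes up more of its value.

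The UGT84A genes encode hydroxycinnamate glucosyltransferases, and UGT84A1, UGT84A3 and UGT84A4 are direct neighbours on chromosome 4 (AT4G15480, AT4G15490 and AT4G15500). UGT84A3 had intensities of 257, 307 and 354 in WT, 400, 222 and 238 in F5H-OE and 262 and 317 in fah-1. The array that stood apart, F5H-OE replicate 1, carried the highest value and the other 2 F5H-OE arrays the lowest values of all. The log2 fold change from WT was -0.14 over all F5H-OE arrays (95% interval -0.66 to 0.38) and -0.40 without replicate 1 (adjusted p = 0.144), the smallest over its alternatives.

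UGT84A1 lay between 21.8 and 28.8 on all arrays, and the arrays other than WT replicate 1 spanned 26.2 to 28.8. UGT84A4 lay between 35.5 and 44.9. Log2 fold changes of these genes were between -0.12 and 0.12 in the 3 comparisons, with standard errors of 0.095 to 0.12. Without F5H-OE replicate 1 the values against WT were 0.061 for UGT84A1 and -0.12 for UGT84A4 (adjusted p = 0.825 and 0.586). The intervals leave room for changes of UGT84A4 in F5H-OE against WT of up to 1.26-fold downwards and 1.07-fold upwards.

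BGLU45 (AT1G61810) and BGLU46 (AT1G61820), which hydrolyse monolignol glucosides, are neighbours on chromosome 1. BGLU45 had intensities of 2776, 2436 and 2649 in WT, 3664, 2276 and 2872 in F5H-OE, and 2420 and 2332 in fah-1. F5H-OE spanned both ends of the scale, and both fah-1 arrays lay just below the lowest WT array. The log2 fold change in F5H-OE against WT was 0.14 (95% interval -0.22 to 0.50), and it was -0.034 without F5H-OE replicate 1 (adjusted p = 0.902).

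BGLU46 had intensities of 563, 417 and 461 in WT, 670, 493 and 592 in F5H-OE, and 545 and 531 in fah-1. The F5H-OE values (493 to 670) overlapped with WT (417 to 563). The difference was 0.28 ± 0.14 (log2, SE, adjusted p = 0.345), and 0.18 without F5H-OE replicate 1 (adjusted p = 0.502). Its log2 fold change was 0.18 in fah-1 (adjusted p = 0.973), ranging from 0.079 without WT replicate 2 to 0.30 without WT replicate 1. BGLU46 had the highest positive log2 fold change of the 10 members in both comparisons with WT, and no member passed as higher in any comparison.

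BGLU47 (AT4G21760) is a relative of BGLU45 and BGLU46. It had intensities of 68.7, 54.8 and 57.9 in WT, 45.8, 52.9 and 68.2 in F5H-OE, and 48.7 and 48.1 in fah-1. Both fah-1 arrays were below all WT arrays, at -0.31 on the log2 scale (95% interval -0.70 to 0.068, adjusted p = 0.965). The F5H-OE arrays reached from below both fah-1 arrays to close to the highest WT array. Their log2 fold change from WT was -0.13 (adjusted p = 0.688), and -0.0034 without F5H-OE replicate 1 (adjusted p = 0.993).

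Groups that did not overlap were also counted. Comparing fah-1 with WT, 3 of 10 members (REF1, BGLU45 and BGLU47) were lower on both fah-1 arrays than on any WT array and 0 were higher, where 14.9% of all probe sets were lower in this way and 23.4% were apart in either direction. In F5H-OE against WT the members were REF1 and UGT72E1, 2 of 10, against 11.7% lower and 21.0% in either direction. Between F5H-OE and fah-1 they were UGT72E1 and UGT72E3, against 18.9% and 36.8%. For 5 of 10 members the group means were ordered F5H-OE, fah-1, WT from low to high, an order held by 22.1% of all probe sets. These were REF1, UGT72E1, UGT72E2, UGT84A3 and UGT84A4, and with all arrays and equal weights no pair of neighbouring groups in that order passed the test for any of them. For UGT72E1, UGT72E2, UGT84A3 and UGT84A4 the sign of fah-1 against WT changed with 1 array left out, so REF1 alone kept this order. F5H-OE was lowest for 6 of 10 members, against 42.3% of all probe sets, and WT was highest for 6 of 10, against 35.8%.

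**Figure D4:**
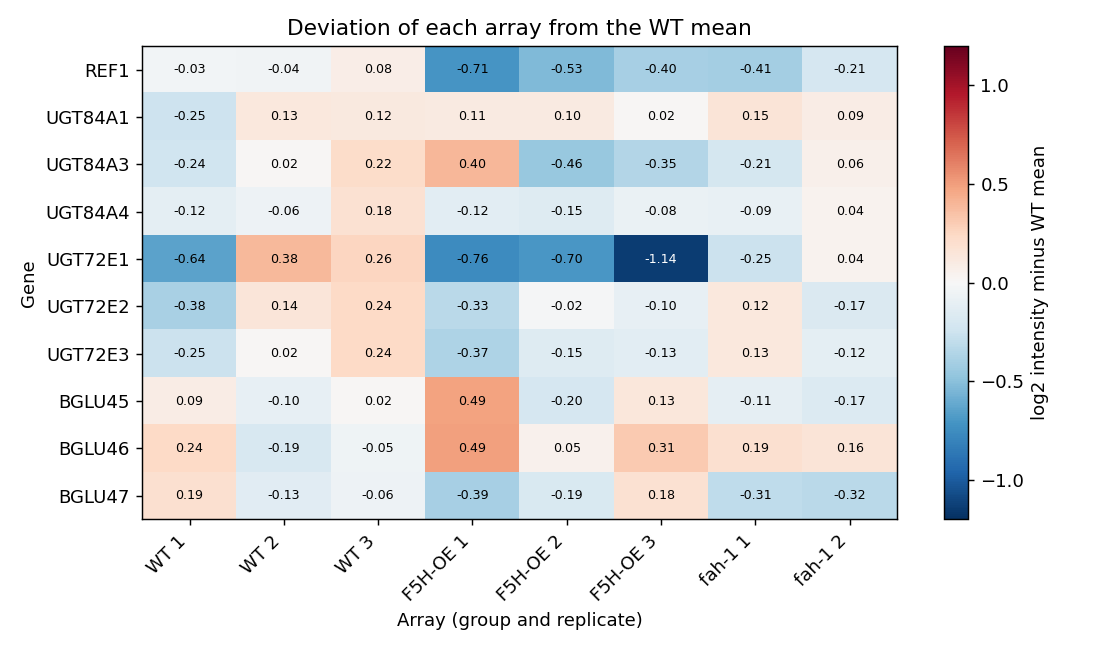
log2 intensity of each gene (rows) on each array (columns) minus the WT mean of that gene; blue is lower and red is higher. REF1 is between -0.71 and -0.21 on all F5H-OE and fah-1 arrays, UGT72E1 is between -1.14 and -0.70 on the F5H-OE arrays, and WT replicate 1 is below the WT mean for all 6 glucosyltransferase genes and above it for the 3 beta-glucosidase genes.

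The order of the WT arrays was compared among the members. On WT replicate 1 all 6 measured UGT genes had their lowest WT value and all 3 beta-glucosidase genes their highest. Over all probe sets, 46.6% were lowest and 28.0% highest on that array among the WT arrays. No such split was seen in F5H-OE, where each array held the lowest value of 2 and the highest of 2 of the 6 UGT genes, and the beta-glucosidase genes were mixed. UGT72E1 was 0.64 below its WT mean there and UGT72E2 0.38 below (log2). IRX10, IRX15 and IRX15-L were likewise highest on WT replicate 1, at 1602, 1506 and 2271, and SWEET11 was lowest, at 312; the part of tissue make-up in this pattern was not tested.

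BGLU45 and BGLU46 ranked the arrays alike within each of the 3 groups: replicate 1 was highest, and replicate 2 lowest, in WT, in F5H-OE and in fah-1. Among all probe sets, 1.89% had this same order in every group, and no other member did. BGLU47 shared it in WT and fah-1, while in F5H-OE it was highest on replicate 3 and lowest on replicate 1. Whether probes of one of these neighbouring genes also detect transcripts of the other was not tested.

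By the root mean square difference of centred log2 values over the 8 arrays, the genes most like REF1 were AT2G36090 (0.0744), AT2G04940 (0.0946) and TBL26 (0.0991), against a root mean square of 0.257 for REF1 about its own mean. For UGT72E1, whose own root mean square was 0.509, they were AT3G51330 (0.218), AT3G63510 (0.221) and AT3G29140 (0.223). BGLU45 was nearest to AT3G25990, AT5G65560 and AT3G02460, BGLU46 to AT1G67060, Phox4 and AT2G41790, and BGLU47 to AT1G13920, AT2G34530 and AT3G57070. UGT84A3 was nearest to AT5G45480, AT1G60730 and the plastid gene rbcL. The genes nearest to the 4 remaining members were AT1G33710, AT1G49960 and AT3G01490 for UGT72E2, AT5G26250, AT2G22070 and AT2G05400 for UGT72E3, AT1G59630, AT4G13440 and AT2G17845 for UGT84A1, and AT1G21340, AT5G03000 and AT4G03790 for UGT84A4. No member was among the 3 nearest genes of another member.

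Other genes of the route were measured sparsely. Of 19 listed monolignol pathway genes 2 could be named, and neither passed in any comparison. HCT, which forms the shikimate esters of the pathway, had intensities of 4802, 3776 and 4078 in WT, 4217, 4019 and 5021 in F5H-OE, and 3815 and 4787 in fah-1. CCR2, a cinnamoyl-CoA reductase, was at 410 on F5H-OE replicate 1 and at 42.3 to 58.9 on the other 7 arrays. Its log2 fold change in F5H-OE against WT was 1.28 with that array (adjusted p = 0.384) and 0.31 without it (adjusted p = 0.107). Of the 5 listed sinapate ester genes, those of the acyltransferases that use sinapoylglucose, 0 had a probe set of their own.

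Of 15 listed genes of lignin polymerisation, transport and regulation 4 were measured, all peroxidase genes, and 0 passed in any comparison (median log2 fold change 0.31 in F5H-OE against WT). PRX72, a peroxidase of stem lignification, was at 13.7, 20.1 and 19.5 in WT, at 23.5, 27.5 and 29.4 in F5H-OE and at 23.0 and 22.7 in fah-1. It was higher on every F5H-OE and fah-1 array than on any WT array. Groups were apart in either direction for 21.0% of all probe sets in F5H-OE against WT and for 23.4% in fah-1 against WT. PRX72 was dim and was left out by either intensity filter. On WT replicate 1 it was at 13.7, where the highest TrpnX control was at 12.5. The F5H-OE difference of 0.61 (log2) from WT did not pass (adjusted p = 0.087). It passed without F5H-OE replicate 1 (0.036), with array weights and with values quantile normalized again (0.015 to 0.266 over the alternatives). PRX25 was at 152, 135 and 108 in WT and at 140, 59.3 and 72.8 in F5H-OE, at -0.62 on the log2 scale (adjusted p = 0.312), or -0.99 without F5H-OE replicate 1 (adjusted p = 0.0097). It also passed with array weights (0.028), and the adjusted p ran from 0.0097 to 0.582 over the alternatives.

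Relatives by gene symbol, a list drawn up after the data had been seen, served for comparison. Of 17 other beta-glucosidase genes 10 were above the highest TrpnX control on every array, and the remaining 7 (BGLU24, BGLU27, BGLU28, BGLU29, BGLU31, BGLU32 and BGLU36) were not, so a change in those may have gone unmeasured. Of the 10, 1 changed in F5H-OE against WT: BGLU41 (AT5G54570) rose by 1.08 (log2, adjusted p = 0.012), from 33.7 ± 6.34 to 71.0 ± 10.0 (SD, n = 3 each), and its call ended without WT replicate 2 or 3 or F5H-OE replicate 3 (adjusted p = 0.056, 0.054 and 0.055). BGLU33 had group means of 1269 in WT, 1281 in F5H-OE and 906 in fah-1. Its log2 fold change in F5H-OE against WT was 0.014 (adjusted p = 0.951). In fah-1 against WT it was -0.49, which did not pass (adjusted p = 0.898). Set against fah-1, BGLU41 and BGLU33 were higher in F5H-OE, by 1.14 and 0.50 on the log2 scale (adjusted p = 0.018 and 0.032). Both calls ended without either fah-1 array, without F5H-OE replicate 2 or 3 and with the replicate block, and that of BGLU33 also without WT replicate 2 or 3 and in a fit of the compared groups alone (adjusted p up to 0.213 for BGLU41 and 0.240 for BGLU33). Of 3 measured relatives of the UGT families, UGT72B3 and UGT84B1 had log2 fold changes of -0.041 and -0.046 in F5H-OE against WT, and neither passed. UGT84B2 was not above the TrpnX level on every F5H-OE array (2 of 3), and no fold change is given for it.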

How the data were processed

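RNA of pooled inflorescence stems was biotin labelled and hybridised to 1-colour Affymetrix arrays, per the labels' protocols. The deposited table gives each probe set an intensity on a linear scale (6.62 to 19683). The submitters' processing notes name RMA without a version. RMA itself returns log2 values, and no source used here states how the linear ones were made. RMA also makes the distributions of arrays alike, so a shift of most transcripts would not be visible. Log2 was taken with no pseudocount.

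After removal of 64 control probe sets, limma 3.58.1 (R 4.3.3) was run on the 8 arrays with 1 mean for each group (lmFit, eBayes, two-sided tests). P-values were adjusted by Benjamini-Hochberg across the 22746 remaining probe sets, and an adjusted p under 0.05 counted as a change. Every adjusted p is from limma, and intervals are 95% moderated intervals. The fit was tested on simulated data. Samples are biological replicates per the labels, and the number of arrays limits the precision.

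Names came from the platform annotation, updated through a TAIR10.1 gene table: 13513 probe sets had 1 gene, 503 several, and 8730 were not listed and are unnamed here. A gene was read by its brightest probe set of 1 gene. Named genes were the members, their 3 nearest genes, and, from each pathway list, those that passed or the 2 with the smallest adjusted p. Outside this rule, the relatives by gene symbol were named after their values were seen, and the measured tissue markers were named as a check of the tissue. Of 69 genes on 8 lists (5 of tissue markers), those of epidermis and cuticle and of flower and silique had no measured gene. Members and lists were chosen with earlier results of these data known. No build is stated with the values, so no coordinates are given.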

Additional observations from a re-analysis of the deposited data

How the results depend on the processing

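The 10 genes in 3 comparisons were refitted under up to 18 alternatives. Of 522 values, 482 kept their direction and their side of the threshold, 8 (all REF1 in F5H-OE against WT) lost the call, 3 (all UGT72E1) gained it, and 29, none called, changed sign. Direction could not change with the intensity trend, the robust spread, the compared groups alone, either intensity filter or an array of the third group left out. Only REF1 in F5H-OE against WT was called as reported, so nothing else could lose a call. The 482 is thus not a measure of stability. The compared groups alone and either fah-1 array left out gave REF1 the same fit, so the 8 are not separate settings. Why values lost or gained a call or changed sign was not tested. Members called in F5H-OE against WT numbered 0 in a fit of the 2 groups compared, where REF1 was at -0.55 (adjusted p = 0.054), 2 with array weights, and 0 to 1 with 1 array left out; REF1 ranged there from -0.62 to -0.46. In F5H-OE against fah-1 array weights called 1 member. Changed probe sets in F5H-OE against WT numbered 603, or 379 in the 2 groups alone, 2526 with array weights, 401 with the replicate block and 237 to 1758 with 1 array left out. In fah-1 against WT they numbered 2, or 1 with a pseudocount of 16 or a robust spread, 3 with the replicate block, and 1 to 3 with 1 array left out. In F5H-OE against fah-1 they numbered 449, or 274, 2878 and 229 in these settings and 69 to 1554 with 1 array left out. There, 259 were higher and 190 lower, against 211 and 241 with each array recentred.

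Replicate numbers are shared between groups. Deviations of same-numbered WT and F5H-OE arrays correlated at 0.172, 0.333 and -0.025, and those of different-numbered arrays at -0.248 to 0.047. The fit reported above did not take the numbers as pairs, and whether same-numbered arrays share an effect was not tested. With the replicate block REF1 in F5H-OE against WT was at -0.55 (adjusted p = 0.037) and the member calls stayed at 1, 0 and 0.

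Uncalled log2 fold changes also changed sign. With array weights they were 0.084 for BGLU47 and -0.011 for UGT84A1 (F5H-OE against WT), -0.026 for UGT72E3 and 0.011 for CCR2 (fah-1 against WT). With each array recentred they were 0.0098 for UGT72E2, 0.0072 for UGT84A4 and 0.029 for CCR2 (fah-1 against WT), -0.013 for HCT (F5H-OE against fah-1). With the replicate block they were 0.050 for UGT72E2 and 0.030 for UGT84A4 (fah-1 against WT). With quantile normalization they were -0.0090 for UGT72E3 and 0.011 for CCR2 (fah-1 against WT), 0.020 for UGT84A1 (F5H-OE against fah-1). With 1 array left out the values that changed sign ranged as follows. For F5H-OE against WT the ranges were -0.034 to 0.31 for BGLU45, -0.047 to 0.14 for UGT84A1, -0.40 to 0.022 for UGT84A3 and -0.028 to 0.16 for HCT. For fah-1 against WT the ranges were -0.43 to 0.087 for UGT72E1, -0.22 to 0.12 for UGT72E2, -0.12 to 0.13 for UGT72E3, -0.0019 to 0.19 for UGT84A1, -0.21 to 0.064 for UGT84A3, -0.092 to 0.066 for UGT84A4, -0.14 to 0.19 for HCT and -0.023 to 0.030 for CCR2. For F5H-OE against fah-1 the ranges were -0.27 to 0.024 for UGT72E2, -0.33 to 0.096 for UGT84A3 and -0.12 to 0.21 for HCT. With 1 array left out, 24 of the 30 member values moved by over 1.5 times or changed sign; the others were REF1 and UGT72E1 in F5H-OE against WT, BGLU45, BGLU47 and REF1 in fah-1 against WT and UGT72E1 in F5H-OE against fah-1. The alternatives for BGLU33, BGLU41 and IRX10 were chosen after seeing the data. Probe sets above the median left 4 of 10 members in the test. Low intensity limits UGT72E3 and UGT84A1 most.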
